A study of Mus musculus with 4 samples.

Results

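The genes described here are the 100 protein-coding mouse genes whose symbol is Cd followed by a digit, out of 21883 protein-coding genes of the RefSeq annotation of mm10. Cd (cluster of differentiation) numbers were given to proteins that antibodies recognise on the surface of leukocytes. A gene was taken as marked when a peak of H3K27me3 lay in it or within 2 kb of it. This histone mark, histone H3 trimethylated at lysine 27, had been mapped by ChIP-seq (chromatin immunoprecipitation followed by sequencing) in cultured GL261 cells, a line of mouse glioblastoma. The groups were control cells and cells labelled IR, taken to mean irradiated because the series title speaks of radiation treatment, with 1 H3K27me3 library and 1 input library each. The radiation dose, harvest time and passage of the line were not stated in the labels. The members were chosen with the peak lists in view, so their counts are a description and were not tested. Since each condition had 1 library, there was no replicate error to compare a difference with, and no p-value between conditions was computed.

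H3K27me3 is laid down by Polycomb repressive complex 2 and is found on genes that a cell type keeps silent, often lineage genes of other cell types. In mammals its broadest domains lie over CpG-rich promoters (CpG islands), which draw in the complex, while leukocyte receptor genes often have CpG-poor promoters. A glioma cell is not a leukocyte, so the coreceptors, antigen receptor chains and myeloid inhibitory receptors of the Cd series are lineage-foreign genes there. Other Cd genes, such as the tetraspanin genes Cd9, Cd63 and Cd81, are expressed in many cell types, and some have restricted patterns outside the lineages compared here, such as Cd46, which in the mouse is found mainly in testis. No expression was measured in the series, so which of these genes GL261 cells use was not examined here. The name also does not always mean a surface protein: Cd2ap encodes an intracellular adaptor, and Cd2bp2 and Cd3eap encode nuclear proteins.

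Both lists consisted mostly of weak, narrow peaks. There were 9866 control and 16091 irradiated peaks, and no peak rested on fewer than 7 reads at its summit in the former or 8 in the latter. A fold is the enrichment at the summit over the local background as the authors' caller gave it, and a q is the authors' adjusted p of that peak; both are the authors' values and belong to 1 list. The number of ChIP reads at a summit and the background were recovered from fold and p.

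Of the 100 Cd genes, 9 were marked in control cells (9%) and 19 in irradiated cells (19%). Among all protein-coding genes the shares were 6.05% and 8.2%. A peak in both lists was found for 7 members (all genes, 3.67%), a control peak without an irradiated one for 2 (all genes, 2.39%), and an irradiated peak without a control one for 12 (all genes, 4.53%). The other 79 members had no peak in either list. Members with more irradiated than control peaks numbered 15, those with fewer 4 and those with as many of each 2. Of these, 8 had a single peak in all. The same count was not made over all genes, where irradiated peaks were 1.95 times as many as control peaks. A longer irradiated list by itself favours this direction. When the irradiated list was cut to the 9866 peaks of lowest p, 11 members kept an irradiated peak (all genes, 5.84%), against 9 with a control peak. With a q of at most 0.05, a control peak was left in 0 members (all genes, 0.516%) and an irradiated one in 3, which were Cd4, Cd300a and Cd300e (all genes, 2.08%).

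**Figure D1:**
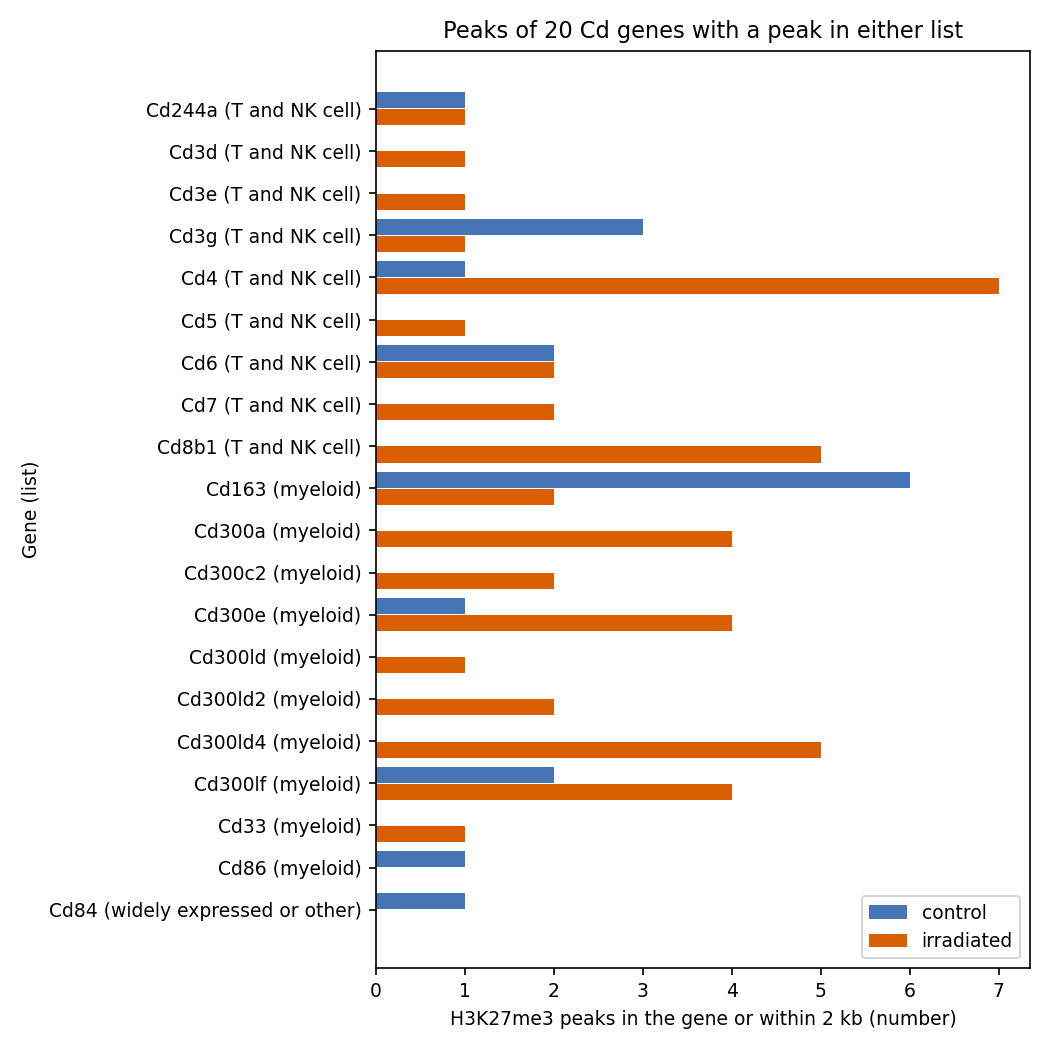
Number of H3K27me3 peaks in the gene or within 2 kb (horizontal axis) of 20 Cd genes with a peak (vertical axis, with the list each gene belongs to), in the control library (blue) and the irradiated library (orange). Cd4 had the longest irradiated bar, at 7 peaks, and Cd163 the longest control bar, at 6.

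Marked members were not spread evenly over the lineage lists. Of 18 T and NK cell genes, the control list marked 4 (22.2%) and the irradiated list 9 (50%). Of 33 myeloid genes, 4 (12.1%) and 9 (27.3%) were marked. Of 8 B cell genes, 0 and 1 (12.5%) were marked. Of the remaining 41 members, a mixed list of widely expressed genes and genes put in no lineage list, 1 had a control peak (2.44%) and 0 an irradiated one. That gene was Cd84, a SLAM family receptor of several leukocyte types. The 6 tetraspanins (Cd9, Cd53, Cd63, Cd81, Cd82, Cd151), the 5 complement regulators (Cd46, Cd55, Cd55b, Cd59a, Cd59b) and the 3 genes of intracellular proteins were all without a peak. With equal numbers of peaks from both libraries, the T and NK cell list had 4 members with an irradiated peak, as many as with a control peak, and the myeloid list 6 against 4. At a q of at most 0.05, 0 and 1 T and NK cell members and 0 and 2 myeloid members were left. The difference between the lists of genes was not tested, because neighbouring members share peaks and the members were chosen on these values.

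**Figure D2:**
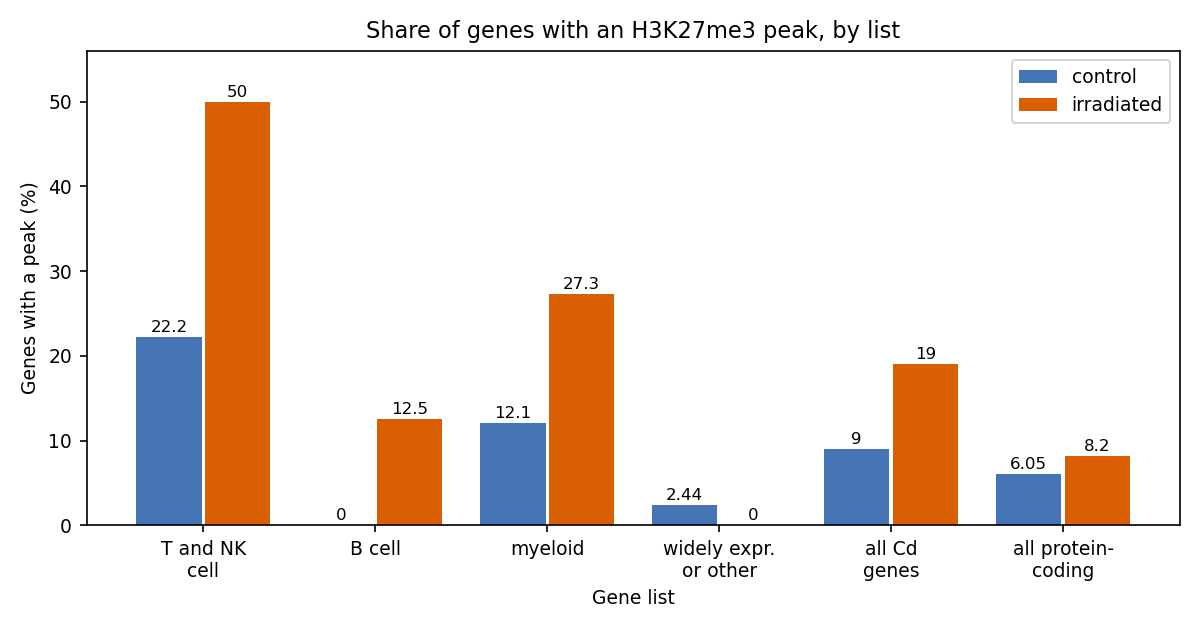
Share of genes with a peak (vertical axis, %) in each list of Cd genes, in all 100 Cd genes and in all protein-coding genes, for the control (blue) and irradiated (orange) library. The T and NK cell list stood highest in both libraries, at 22.2% and 50% with all listed peaks (4 genes in each library with equal numbers of peaks), and the list of widely expressed or other genes lowest in the irradiated one, at 0%.

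The lists ranked differently by median gene length, and the part of length in the shares of marked genes was not tested. The median gene was 17.8 kb long in the T and NK cell list, 10.0 kb in the myeloid list, 7.04 kb in the B cell list and 22.5 kb in the mixed list of other members, against 17.2 kb over all protein-coding genes. Per Mb of gene with its 2 kb on either side, the T and NK cell genes held 11.9 control and 34.0 irradiated peaks, and the myeloid genes 13.2 and 27.8. The other members held 0.693 and 0, and all protein-coding genes 2.86 and 5.57. Among members in the class of the longest genes (the upper quartile, from 44341 bp), 0 of 14 had an irradiated peak, against 17.1% of all genes of that class, while 2 of 14 had a control peak (14.3%), near the 15.4% of all genes. In the quartile from 5672 to 17170 bp 10 of 38 had an irradiated peak (26.3%), against 4.97%, and 2 a control peak (5.26%), against 2.65%.

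The marked members were concentrated on a pair of chromosomes. Chromosomes 6 and 11 are rich in peaks in both libraries, and they carried 23 members, of which 4 had a control peak (17.4%) and 11 an irradiated one (47.8%). All genes of these chromosomes were marked in 10.1% and 13.7% of cases. On the other chromosomes, the control list marked 5 of 77 members (6.49%) and the irradiated list 8 (10.4%), against 5.47% and 7.42% of all genes there. The members outside chromosomes 6 and 11 were marked at a share near that of other genes. No member lies on chromosome 15, which held the most peaks of all. This split was chosen after the values were seen.

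The promoters of marked members were poor in CpG. RefSeq promoter windows of 300 bases (250 before the start of the gene and 50 after it) were at hand for 73 of the 100 members, 14 of the 21 marked ones among them. Where a gene had several starts, the window with the most CpG dinucleotides was used. Marked members had 1 to 8 CpG per window with a median of 3, unmarked members 0 to 41 with a median of 5, and all 17491 genes with a window a median of 15. By list, marked or not, the medians were 3.5 (T and NK cell), 7 (B cell), 3 (myeloid) and 8.5 (the others). Low CpG was thus a trait of the T and NK cell and myeloid lists as a whole, not of their marked members alone. The motif counted was CG, which reads the same on both strands, and 50% of all promoters held at least 15. Of the 12 members with at least 15 CpG, 0 had a peak: Cd2ap, Cd276, Cd47, Cd164, Cd320, Cd81, Cd151, Cd3eap, Cd9, Cd2bp2, Cd82 and Cd274, none of them of a lineage list. Of the 18 members with 6 to 14 CpG, 2 had a control peak and 3 an irradiated one (3 in either list). Of the 43 with at most 5 CpG, the counts were 4 and 10 (11 in either list). Over all genes the class with at least 15 CpG was also the lowest, with a peak in 3.99% (control) and 5.45% (irradiated) of genes. With shares that low, 0 of 12 members cannot be told apart from all genes of the class. The class of 6 to 14 had 7.51% and 10.6%, and that of at most 5 had 7.29% and 9.51%. The median gene lengths of the classes, from the most CpG to the fewest, were 25.7, 17.3 and 6.18 kb.

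**Figure D3:**
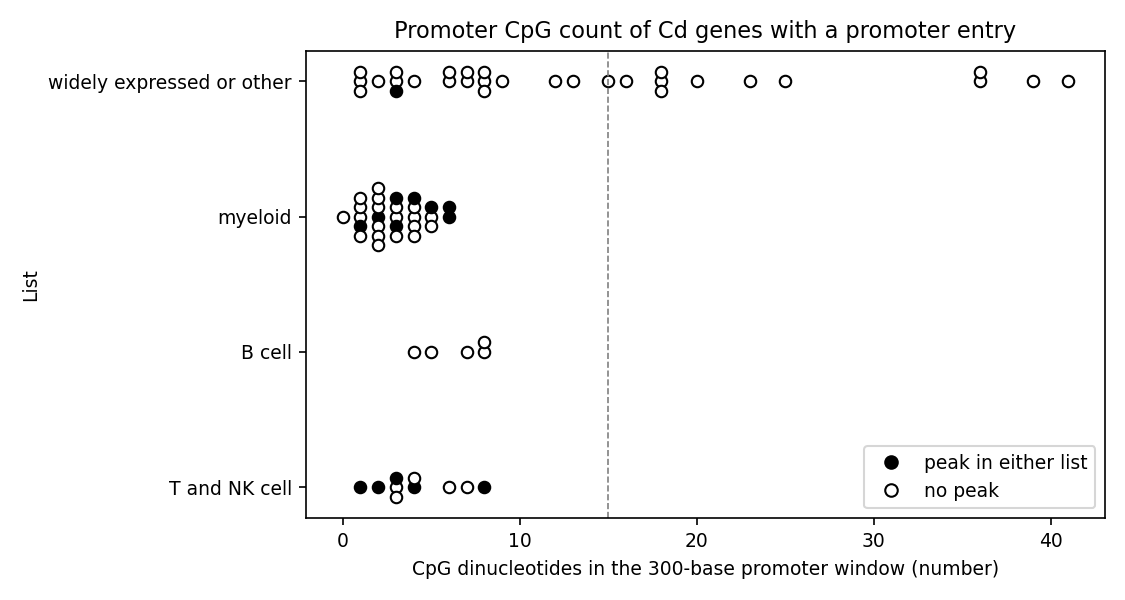
Number of CpG dinucleotides in the 300-base promoter window (horizontal axis) of the 73 Cd genes with a RefSeq promoter entry, by list (vertical axis); each point is a gene, filled where it had a peak in either list. The dashed line stands at 15 CpG, the median of all genes; all filled points lie at 8 or fewer.

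The promoters below differ in their number of CpG. Each is given as the 250 bases before the start of the gene, 5′ to 3′, from RefSeq (GRCm38.p6, the assembly of mm10), with CpG in capitals. Cd33 is the 1 member of the 73 whose promoter window a peak overlapped, Cd3d had an irradiated summit just after its start, Cd300e held the irradiated member peak of lowest q, and Cd164, which encodes a widely expressed sialomucin, is a CpG-rich member with no peak. The positions are chr7:43533172-43533421 on the minus strand for Cd33, chr9:44981536-44981785 on the plus strand for Cd3d, chr11:115062040-115062289 on the minus strand for Cd300e and chr10:41519250-41519499 on the plus strand for Cd164.
Cd33: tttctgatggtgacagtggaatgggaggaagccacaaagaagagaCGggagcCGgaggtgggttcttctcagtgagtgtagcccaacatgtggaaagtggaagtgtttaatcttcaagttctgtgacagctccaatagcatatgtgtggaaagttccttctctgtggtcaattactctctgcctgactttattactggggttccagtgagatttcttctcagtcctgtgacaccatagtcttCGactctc
Cd3d: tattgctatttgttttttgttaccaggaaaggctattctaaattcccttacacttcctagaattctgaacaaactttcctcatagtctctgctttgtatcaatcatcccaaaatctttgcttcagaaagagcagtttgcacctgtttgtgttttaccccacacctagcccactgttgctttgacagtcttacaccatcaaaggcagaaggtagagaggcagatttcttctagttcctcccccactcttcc
Cd300e: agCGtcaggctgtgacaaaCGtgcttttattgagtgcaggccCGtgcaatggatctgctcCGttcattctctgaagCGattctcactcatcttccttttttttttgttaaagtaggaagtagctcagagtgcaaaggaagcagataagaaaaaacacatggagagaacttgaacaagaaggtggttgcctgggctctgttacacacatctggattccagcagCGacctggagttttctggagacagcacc
Cd164: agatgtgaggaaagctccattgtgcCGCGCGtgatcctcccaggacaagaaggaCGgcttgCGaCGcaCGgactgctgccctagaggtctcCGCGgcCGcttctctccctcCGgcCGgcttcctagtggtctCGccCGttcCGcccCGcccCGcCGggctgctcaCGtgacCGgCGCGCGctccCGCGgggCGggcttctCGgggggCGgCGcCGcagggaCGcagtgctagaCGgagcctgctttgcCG
These stretches hold 3, 0, 6 and 33 CpG, and 46.8%, 41.2%, 46.4% and 71.6% of their bases are G or C. The last 84 bases of the Cd33 stretch lie in its irradiated peak.

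Few member peaks lay at a start, and peaks at promoters were rare over all genes too. Over all 17491 genes with a promoter window, control peaks overlapped 40 promoters and irradiated peaks 78. For the 73 members with a window the numbers were 0 and 1. Of 42 distinct irradiated peaks, 37 lay at least in part in a member gene and 5 in the 2 kb beside one; of 18 control peaks, 16 and 2. For the genes whose start was known, 0 of 14 control summits and 3 of 25 irradiated summits lay within 1000 bp of it. These summits lay at 132 bp (Cd33), 302 bp (Cd3d) and -854 bp (Cd300c2) from the start, negative values being before it. Exons and introns were not resolved.

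In the irradiated list Cd4 held more peaks than any other member. It encodes the coreceptor of helper T cells, which binds MHC class II (chromosome 6, 124864693 to 124888247). There were 7 irradiated peaks there, all in the gene, from 124869234 to 124879954, with folds of 2.62, 3.60, 4.99, 4.74, 3.63, 5.14 and 3.12 in order of position and 12 to 17 reads at the summit. Of these, 3 had a q of at most 0.05, at 0.00554, 0.0157 and 0.00261. The last of these, 1192 bp wide, was the widest member peak. The single control peak of Cd4 lay outside the gene at 124890179 to 124890556, with a fold of 2.40, a q of 1 and 10 reads over a background 2.18 times the lowest of its list. It was 10.2 kb from the nearest irradiated peak of the gene, so the gene body itself was without a control peak.

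Between Cd163 and Cd4, both on chromosome 6, lie 22 protein-coding genes. Of these, 20 had no peak in either list (all genes, 10.6% with a peak in either list). The exceptions were C1rb and C1s2, complement protease genes. The genes next to Cd4 on that side, such as Gpr162, P3h3, Gnb3, Cdca3, Usp5 and the glycolytic enzyme gene Tpi1, were among the 20. With a share of 10.6% over all genes, unmarked neighbours are the usual case. The window of Cd4 held 254 irradiated peaks per Mb, against 54.5 per Mb of the whole interval from Cd163 to Cd4 and 13.3 per Mb of chromosome 6. This density is that of the member with the most irradiated peaks, and the interval includes its window. The interval held 32 irradiated and 17 control peaks, of which 9 and 7 counted for these 2 members, so most of its irradiated peaks lay elsewhere in it.

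Cd8b1, which encodes the beta chain of the coreceptor of cytotoxic T cells (chromosome 6, 71322788 to 71337492), held peaks in the irradiated list alone, 5 in number. Their folds were 3.05, 3.41, 3.55, 3.11 and 3.37, with 11 to 13 reads and a lowest q of 0.149. Cd8a, the gene of the alpha chain that pairs with it, had no peak in either list; its nearest irradiated peak lay 34.1 kb away. The control list had its nearest peak 9.17 kb from Cd8a, in the interval between these genes.

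The CD3 chains, which carry the signal of the T cell receptor, are encoded side by side on chromosome 9. Cd3g (44969572 to 44980431) held 3 control peaks in the gene, with folds of 3.43, 3.75 and 3.75, 9 to 10 reads and a lowest q of 0.385. Its 1 irradiated peak, at 44981926 to 44982195, lay outside it in Cd3d, with a fold of 3.31, a q of 0.400 and 10 reads, and is the same peak that marks Cd3d. Cd3e (44998735 to 45009663) had 1 irradiated peak, whose fold was 3.18 at a q of 0.524, and no control peak. The control and irradiated peaks of this cluster lay at different places, with 3.36 kb as the smallest gap, and each list put its peaks on other chains. Cd247, which encodes the zeta chain on chromosome 1, had no peak in either list.

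Cd5 and Cd6, paralogous scavenger receptors that tune T cell receptor signals, lie next to each other on chromosome 19. Cd6 (10789339 to 10830062) had 2 control peaks, with folds of 3.03 and 3.64, and 2 irradiated peaks, with folds of 2.36 and 4.49. The strongest irradiated one, at 10821302 to 10821707, had 12 reads and a q of 0.0536; the strongest control one, at 10825843 to 10826126, had 16 reads over a background 2.18 times the lowest and a q of 0.375. The closest pair was 1496 bp apart, so the lists shared the gene without a shared site. Cd5 (10718107 to 10739026) had 1 irradiated peak, with a fold of 2.98 (q of 0.380), over a background 2.49 times the lowest.

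Cd7, an immunoglobulin family gene of T and NK cells (chromosome 11, 121036747 to 121039478), had 2 irradiated peaks with folds of 2.43 and 2.76. They stood over the highest backgrounds among the irradiated member peaks, 4.33 and 4.22 times the lowest. Cd244a encodes the SLAM family receptor 2B4 of NK cells (chromosome 1, 171558718 to 171585316). It had 1 peak in each list, with a control fold of 4.08 (11 reads, q of 0.385) and an irradiated fold of 4.04 (11 reads, q of 0.0536), 15.6 kb apart.

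**Figure D4:**
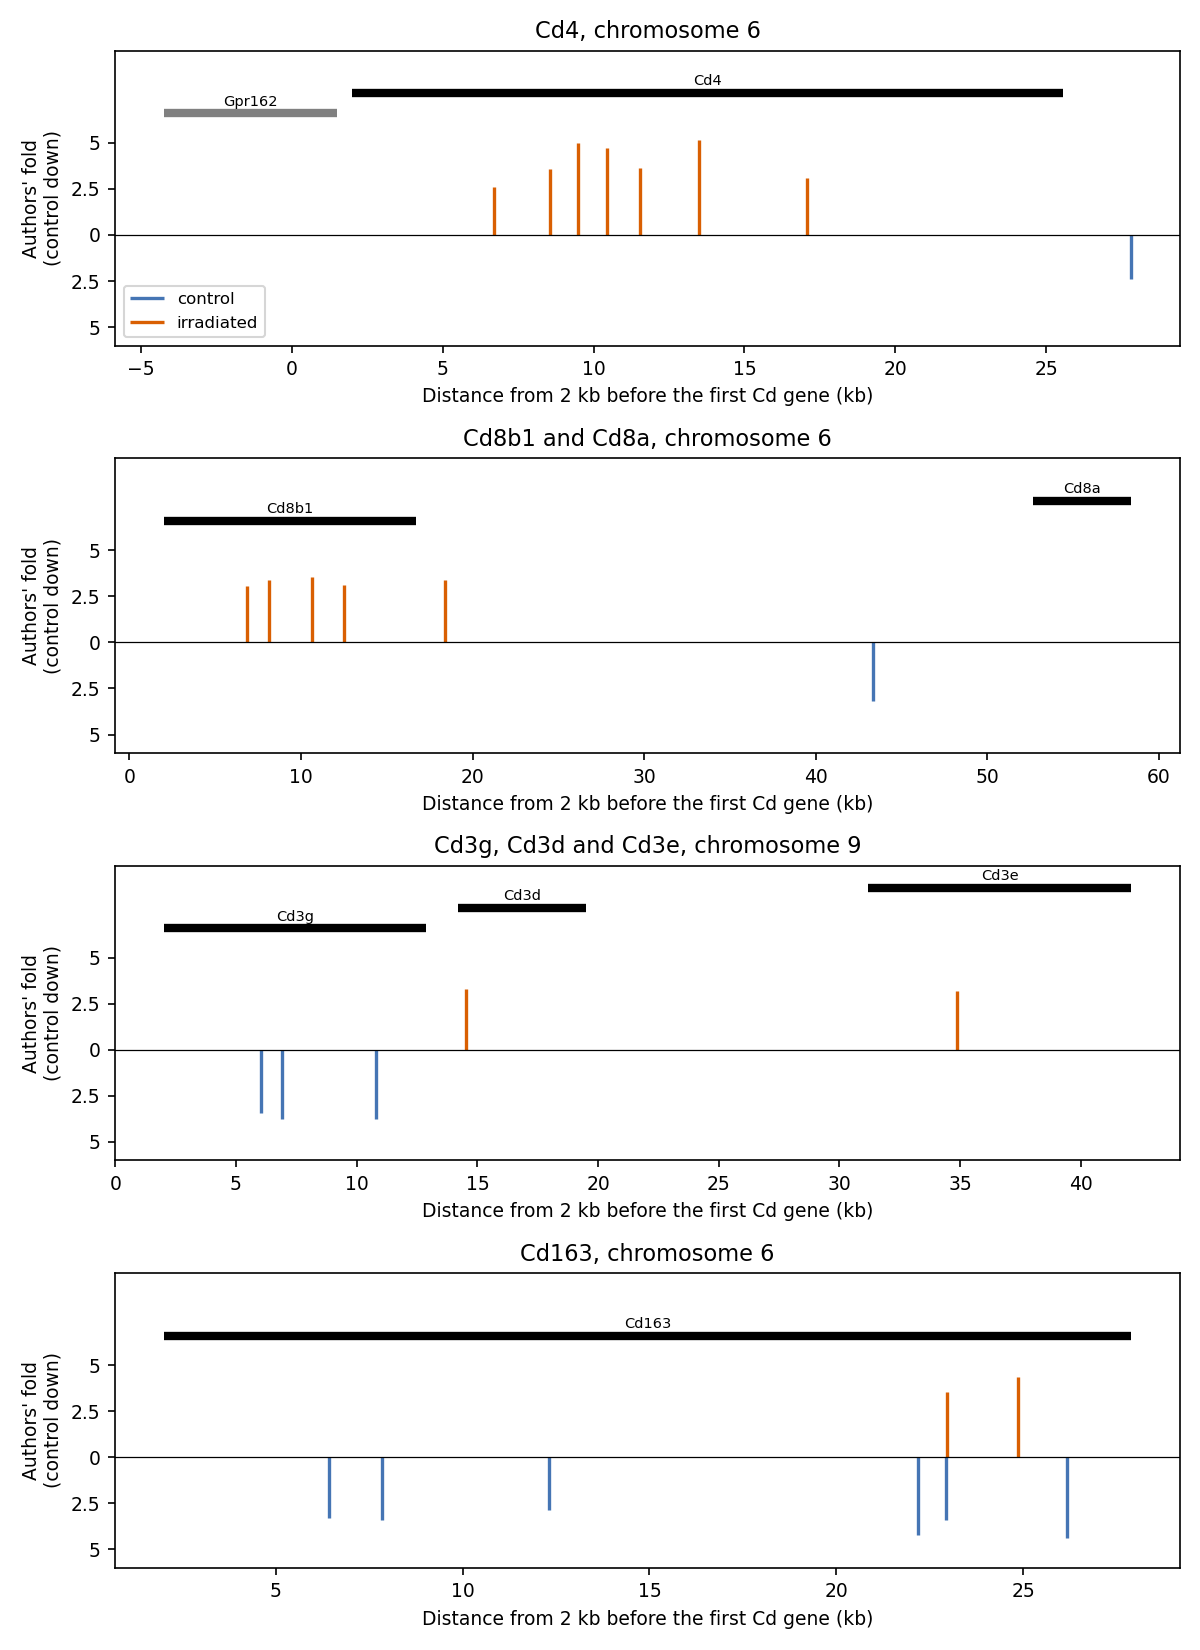
Peaks at Cd4, at Cd8b1 and Cd8a, at the Cd3 genes and at Cd163: each line is a peak at the distance of its summit from 2 kb before the first Cd gene (horizontal axis, kb), its length the authors' fold in that list (vertical axis, irradiated up in orange, control down in blue). Bars are genes (black, Cd genes; grey, Gpr162); all 7 irradiated peaks of Cd4 and no control peak lie in the gene, while Cd163 has 6 control and 2 irradiated peaks.

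Across the T and NK cell list the lists had 7 distinct control and 20 distinct irradiated peaks, and 0 of either overlapped a peak of the other list (exact 95% intervals up to 41.0% and 16.8%). These intervals treat peaks as independent and cover the shares at all protein-coding genes, 21.3% and 10.97%. Irradiated peaks over a background at least 1.5 times the lowest made up 65% of those 20, against 29.8% of irradiated peaks at all protein-coding genes; the part of the background in these calls was not tested. Without a peak in either list were 9 members, Cd2, Cd8a, Cd27, Cd28, Cd40lg, Cd96, Cd160, Cd226 and Cd247. They include the costimulatory receptor Cd28 and Cd40lg, the ligand gene by which helper T cells activate B cells. Their nearest irradiated peak lay at least 34.1 kb away.

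The B cell list, of 8 genes, held 0 control peaks and 1 irradiated peak. Its irradiated share of 12.5% was not below the 8.2% of all protein-coding genes. Per Mb it held 9.67 irradiated peaks, against 5.57. With 8 genes, a control count of 0 cannot be told apart from the 6.05% of all protein-coding genes. Without a peak were, among others, Cd79a and Cd79b, which encode the signal chains of the B cell receptor, the inhibitory lectin gene Cd22 and the costimulatory receptor gene Cd40. For the 7 members of this list with no irradiated peak, the nearest one lay at least 10.8 kb away.

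In the myeloid list the Cd300 genes made up most of the marked members. They encode paired activating and inhibitory receptors, several of which bind lipids, and 11 of them lie in a cluster of 250 kb on chromosome 11 (114887152 to 115137372). The cluster held 3 control peaks and 28 irradiated peaks, 11.99 and 112 per Mb, against 7.59 and 17.8 per Mb of the whole chromosome. Of the 28, 18 counted for a member and the others lay farther than 2 kb from a Cd300 gene. The cluster was singled out after its values were seen. Without the Cd300 genes, 2 of 22 myeloid members were marked by a control peak (9.09%) and 2 by an irradiated one (9.09%).

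Cd300a, which encodes an inhibitory receptor (114889152 to 114901946), had 4 irradiated peaks and no control peak. Their folds were 4.05, 3.14, 3.51 and 5.14. The highest, at 114903079 to 114903615, lay outside the gene, with 14 reads and a q of 0.0119. A run of further irradiated peaks continued beyond the 2 kb limit, with folds of 3.19, 3.84, 4.78 and 3.89. Together these made a group of 8 irradiated peaks between 12.2 and 20.8 kb from the start of the mapped interval, where the control list had none.

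Cd300e, which encodes an activating receptor of monocytes (115051917 to 115066676), had 4 irradiated peaks and 1 control peak. The irradiated peak at 115060691 to 115061588 had a fold of 5.54, 19 reads and a q of 0.000659, the lowest q of any member peak, over a background 1.53 times the lowest. Its summit lay 1165 bp after the start of the gene. Another irradiated peak, outside the gene at 115067572 to 115067947, reached a fold of 4.95 (q of 0.00985), and the other folds were 2.95 and 3.31. The control peak, at 115052700 to 115053183, had a fold of 3.11, 8 reads and a q of 1, and lay 7.51 kb from the nearest irradiated one.

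Cd300lf, an inhibitory receptor gene that lies within the span of Rab37 (115116214 to 115135372), had 2 control and 4 irradiated peaks. It was 1 of 2 members with the same sites in both lists. At the upper end of the gene a control peak (115135024 to 115135307, fold 3.26, 12 reads) overlapped an irradiated peak (115135073 to 115135670, fold 3.89, 13 reads, q of 0.0536). Just outside it a control peak (115137236 to 115137650, fold 3.26, 12 reads) overlapped another (115137211 to 115137630, fold 3.41, 12 reads). All 4 stood over raised backgrounds, 1.73 times the lowest in the control list and 1.57 and 1.76 times in the irradiated list. These peaks count for Rab37, a GTPase gene, as well.

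The other marked Cd300 genes had irradiated peaks alone. Cd300ld4 held 5, with folds of 2.73 to 4.16, but 2 of them also count for Cd300c2 and another 2 for Cd300ld2. The one of highest fold, at 115013080 to 115013349, had a q of 0.0536 and lies in both Cd300ld4 and Cd300ld2. Cd300c2 had a highest fold of 3.41, and Cd300ld 1 peak with a fold of 2.9998 and 8 reads. Cd300lb, Cd300c, Cd300ld3 and Cd300ld5 had no peak, though an irradiated peak lay 2.53 kb from Cd300c and a control peak 4.28 kb from Cd300ld3. The genes of this cluster are similar copies, and the labels do not state how reads that match several of them were counted.

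**Figure D5:**
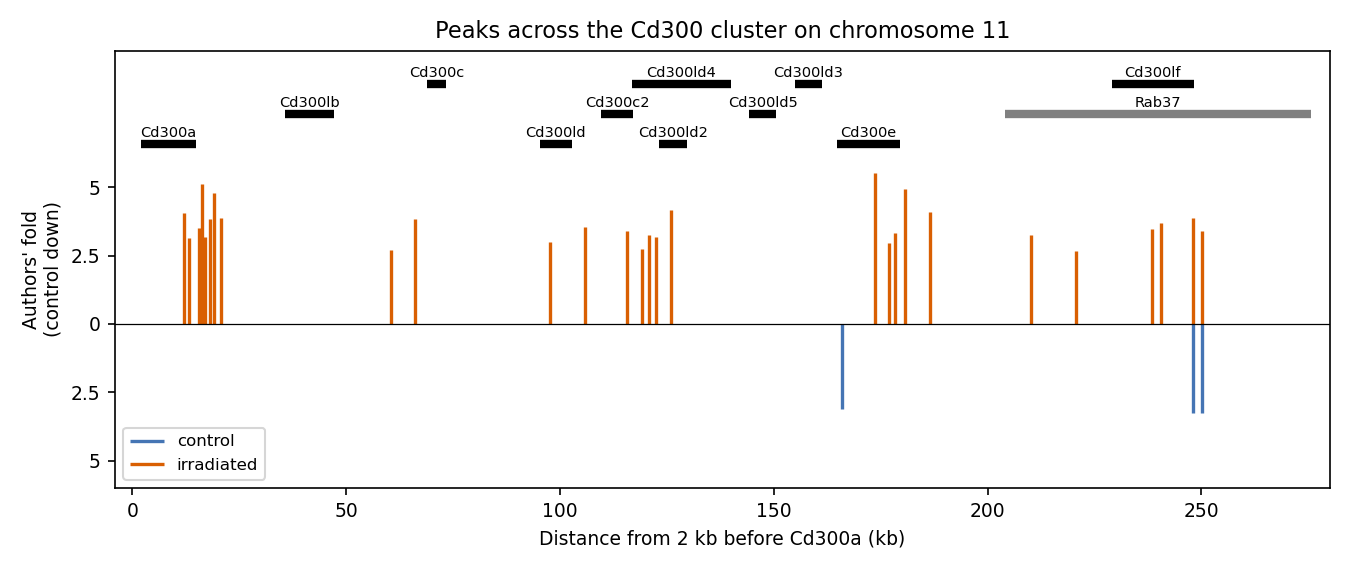
Peaks across the Cd300 cluster: each line is a peak at the distance of its summit from 2 kb before Cd300a (horizontal axis, kb), its length the authors' fold in that list (vertical axis, irradiated up in orange, control down in blue). Black bars are Cd300 genes and the grey bar is Rab37; 28 irradiated and 3 control peaks are drawn, and the control peaks lie at Cd300e and Cd300lf.

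Cd163, the scavenger receptor by which macrophages take up haemoglobin (chromosome 6, 124304636 to 124330529), went the other way in number. It held 6 control peaks, with folds of 3.29, 3.43, 2.85, 4.22, 3.43 and 4.40, 9 to 12 reads and a lowest q of 0.0823. It held 2 irradiated peaks, with folds of 3.55 and 4.38, 11 and 14 reads and a lowest q of 0.0536. At 124325436 to 124325719 (control) and 124325362 to 124325719 (irradiated) the lists shared a site. Control peaks stood at 201 per Mb of its window, against 28.9 per Mb of the interval from Cd163 to Cd4 and 8.37 per Mb of chromosome 6. This density is that of the member with the most control peaks. Cd163 was the 1 member with a control peak of a −log10 p of at least 5 (all genes, 0.859%), and 6 members had such an irradiated peak (all genes, 3.28%).

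Cd33, which encodes a lectin of myeloid cells (chromosome 7, 43527399 to 43537424), had 1 irradiated peak at 43532945 to 43533255. That peak overlapped the promoter printed above, with a fold of 2.9998, 8 reads and a q of 0.537. Cd86, the costimulatory ligand gene of antigen-presenting cells (chromosome 16, 36568956 to 36666158), had 1 control peak at 36596314 to 36596619, with a fold of 3.75, 10 reads and a q of 0.385. Cd84 (chromosome 1, 171839697 to 171890718) had 1 control peak, at 171868038 to 171868547, with a fold of 3.43, 9 reads and a q of 0.831. Each of these rested on a single weak peak.

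The lectin genes Cd209a to Cd209g, a family of 7 that includes relatives of the dendritic cell receptor DC-SIGN, had no peak in either list. The same held for the 4 Cd200r genes, which encode receptors of myeloid cells. The nearest irradiated peak lay 52.4 kb from the Cd209 genes and 698 kb from the Cd200r genes. The Cd200r genes lie with Cd80, Cd86, Cd200, Cd96 and Cd47 on chromosome 16. Of all genes of this chromosome, 5.01% had a control peak and 3.39% an irradiated one, against 6.05% and 8.2% over all chromosomes. The distances below are therefore not particular to the Cd genes. For those 9 members the irradiated list had its nearest peak 684 kb away at the closest, and for Cd47, the gene of the "do not eat me" signal, 5783 kb away against 14.3 kb in the control list. Also without a peak were Cd14, Cd68, Cd93, Cd101, Cd177, Cd207, Cd302 and Cd5l.

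Sites were seldom shared. Of 18 control member peaks, 3 overlapped an irradiated peak (16.7%, exact 95% interval 3.58 to 41.4), and of 42 irradiated member peaks 3 overlapped a control peak (7.14%, 1.498 to 19.5). For peaks at all protein-coding genes the shares were 21.3% (19.9 to 22.7) and 10.97% (10.2 to 11.8). So of the 7 members in both lists, Cd300lf and Cd163 held a common site, and Cd4, Cd6, Cd3g, Cd244a and Cd300e had peaks at least 1496 bp apart. Irradiated member peaks were 2.33 times as many as control ones (1.31 to 4.31), against 1.95 (1.87 to 2.03) at all protein-coding genes and 1.63 in the whole lists. The interval for the members covers both of these values. Intervals cover counting error only and treat peaks as independent. Of the 42 irradiated member peaks, however, 18 lay in the Cd300 cluster and 7 at Cd4. The intervals are therefore too narrow, and no conclusion is drawn from them. The median fold of member peaks was 3.43 for control and 3.41 for irradiated peaks, against 3.43 and 3.55 at all protein-coding genes.

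Lineage genes that are not named Cd gave another order of the cell types. Of 18 such T cell genes, 1 was in the control list (5.56%) and 4 were in the irradiated list (22.2%); of 17 B cell genes, 4 (23.5%) and 9 (52.9%); of 18 myeloid genes, 1 (5.56%) and 5 (27.8%). All genes had 6.05% and 8.2%, so the control shares of the T cell and myeloid genes were near the background. The B cell genes thus stood highest here and lowest among the lineage lists of Cd genes. That list of Cd genes had 8 members, and its irradiated share of 12.5% was not below that of all genes. Gene lengths were not matched between the lists. Ebf1, a transcription factor gene of B cell commitment on chromosome 11, held 10 control and 30 irradiated peaks, with a lowest irradiated q of 0.00171. Blk, Fcmr and Ms4a1, which encode a B cell kinase, an IgM receptor and CD20, each had an irradiated fold of 3.84 and a q of 0.149. Among T cell genes Lck, a kinase gene of T cell receptor signalling, had 1 irradiated peak with a fold of 3.87. The checkpoint receptor gene Pdcd1 and Ubash3a each had 1 irradiated peak, with folds of 2.91 and 2.91. Among myeloid genes Marco, a macrophage scavenger receptor gene, had 1 control and 5 irradiated peaks, and Fcgr1, an Fc receptor gene, 1 irradiated peak, each with a lowest irradiated q of 0.0119. Itgam and Csf1r each had 2 irradiated peaks, with folds of 4.16 and 3.63 at the peak of lowest q.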

How the data were processed

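H3K27me3 ChIP-seq of GL261 cells gave 1 peak list per library (control, irradiated). BWA, deepTools and build mm10 are named in the submitters' processing notes; no source used here names the peak caller. Besides positions (other values, in bp), the authors deposited for each peak a score, which equals 10 times its −log10 p without decimals. The authors also deposited a ratio, the fold over local background at the summit, and an unadjusted −log10 p and a −log10 q. Lines giving a further summit of an interval (215 control, 679 irradiated) were merged, keeping the highest. Whole ChIP reads and backgrounds were solved from fold and p with a Poisson model (tolerance 0.001 in −log10 p), which gave a solution for 100% of lines, and were tested on simulated data. Background is in multiples of the lowest of the list. Genes came from RefSeq (GRCm38.p6), chromosomes 1 to 19, X and Y; overlap was at least 1 bp. The entry of Cd99 starts at position 48 of chromosome 4, where other placed genes start at 3172083, so its place is doubtful and its lack of a peak says nothing. Members with a peak are named, and of other lineage genes up to 4 a list by lowest q; some genes that this rule took are not reported here. The members and lists were chosen with earlier results of these data known. Python 3.11.15, pandas 2.3.3 and scipy 1.17.1 were used. Alternatives are in the closing section.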

Additional observations from a re-analysis of the deposited data

How the results depend on the processing

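No paired analysis was possible because each condition has 1 library. Counts repeated with other settings numbered 76, of which 44 stayed within 1.5 times the reported count and 32 did not (29 in settings that use fewer peaks or fewer genes by construction, and 3 with the wider window, which takes in more peaks). With a q of at most 0.05, control peaks were left in 0 members (T and NK cell 0, myeloid 0; 0 peaks), irradiated peaks in 3 (T and NK cell 1, B cell 0, myeloid 2; 6 peaks), 0 members were in both lists, and 0 control and 0 irradiated member peaks overlapped. With a −log10 p of at least 5 a control peak was left in 1 member (T and NK cell 0, myeloid 1; 1 peak), an irradiated one in 6 (T and NK cell 2, B cell 0, myeloid 4; 8 peaks), and 0 were in both. With equal numbers of peaks, 11 members had an irradiated peak (T and NK cell 4; 21 peaks). With 5000 bp on either side, 14 members had a control peak (B cell 1) and 11 were in both lists; Cd207, Cd300ld3, Cd3d and Cd70 were among those that gained a control peak, and Cd207, Cd300c, Cd38, Cd59a and Cd70 an irradiated one. The gene alone, at least 50% of the peak in the window, and a reciprocal overlap of 50% kept each count within 1.5 times. Chosen after seeing the data were leaving out chromosomes 6, 11 and 15 (5 members with a control and 8 with an irradiated peak), the myeloid list without the Cd300 genes (2 and 2), and peaks over a background under 1.5 times the lowest, which left 7 and 16 members. Member peaks rest on 8 to 19 reads, so a gene without a listed peak may carry the mark below the calling threshold.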
